A study of Saccharomyces cerevisiae with 12 samples.

Results

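Small nucleolar RNAs (snoRNAs) and spliceosomal small nuclear RNAs (snRNAs) of *Saccharomyces cerevisiae* carry names that begin with snR, and every locus listed under such a name was taken. This gave 81 of the 7080 loci in each of the 3 deposited gene tables. By the RefSeq annotation of the R64 genome, 47 of them encode box C/D snoRNAs, 29 encode H/ACA snoRNAs and 5 encode snRNAs. U3, whose annotation names no box, was counted as a box C/D RNA.

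RNA was sequenced from 12 yeast cultures in YPD medium. The 3 controls received no drug, and the others, 3 for each compound, received tetracycline (Tet), doxycycline (Dox) or 4-epidoxycycline (4-ED) at 1.5 μg/ml. The labels name strain BY4741, and the study's methods name R1158, a derivative of it in which every culture, control or treated, carries the tetracycline-controlled transactivator tTA driven by the CMV promoter at *URA3*. Each culture was harvested at a similar density, and the methods state that the cultures with a tetracycline grew more slowly than the controls. The deposited tables hold 1 expression value per group in FPKM, read fragments scaled to the length of the locus and to the depth of the library, which pools the 3 libraries, so no error, no interval and no test across cultures can be given for any value here. The depth behind a single locus is unknown. Differences are given as log2 ratios, treated FPKM divided by control FPKM, and "higher" or "lower" describes those pooled values only. In such bulk samples, fewer cells that hold an RNA and less of the RNA per cell cannot be told apart.

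snoRNAs act in the nucleolus as guides for the modification of other RNAs, mainly ribosomal RNA (rRNA). Box C/D RNAs bind Nop1, Nop56, Nop58 and Snu13 and direct ribose methylation, whereas H/ACA RNAs bind Cbf5, Gar1, Nhp2 and Nop10 and direct pseudouridylation. A few of them, such as U3, U14, snR10 and snR30, serve in the cleavage of the rRNA precursor. The snRNAs are the RNA parts of the spliceosome. Most yeast snoRNAs are transcribed from their own promoters, some are cut from a transcript that carries several, and a few are released from the introns of host genes. Mature RNAs of these kinds lack a poly(A) tail, and the methods state that the libraries were selected for mRNA. The FPKM values are therefore levels among the molecules that this selection kept.

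The members on which the results below turn are printed 5′ to 3′ as DNA from the R64 reference. U6 (snR6, chrXII:366235-366346, plus strand) had a log2 ratio above 2 in each of the 3 tables. The capitals mark its ACAGAGA box, which pairs with the 5′ splice site.
snR6: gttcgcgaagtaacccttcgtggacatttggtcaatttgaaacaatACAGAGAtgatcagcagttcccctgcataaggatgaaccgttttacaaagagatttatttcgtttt

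The 3 H/ACA RNAs with the highest ratios under 4-ED are shown with the ACA near the 3′ end in capitals. They are snR49 (chrXIV:716120-716284, plus strand), snR189 (chrIII:178610-178798, minus strand) and snR35 (chrXV:759326-759529, minus strand).
snR49: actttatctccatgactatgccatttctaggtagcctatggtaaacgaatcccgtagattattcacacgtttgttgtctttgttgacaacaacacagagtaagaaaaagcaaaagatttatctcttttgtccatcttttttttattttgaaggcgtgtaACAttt
snR189: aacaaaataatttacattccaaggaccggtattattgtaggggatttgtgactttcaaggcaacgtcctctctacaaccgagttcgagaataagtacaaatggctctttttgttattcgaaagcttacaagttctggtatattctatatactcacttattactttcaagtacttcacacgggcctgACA
snR35: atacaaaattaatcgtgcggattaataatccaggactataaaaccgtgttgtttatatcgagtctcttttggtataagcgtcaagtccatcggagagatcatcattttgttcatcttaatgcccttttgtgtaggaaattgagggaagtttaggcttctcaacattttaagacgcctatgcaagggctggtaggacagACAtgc

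snR74 (chrXIII:298138-298225), snR73 (chrXIII:298307-298412) and snR72 (chrXIII:298554-298651), all on the plus strand, are neighbours in a cluster and are shown because their ratios lay in opposite directions. The capitals mark TGATGA, the usual letters of box C, within the first 20 bases, and CTGA, those of box D, within the last 14. snR74 holds no TGATGA there.
snR74: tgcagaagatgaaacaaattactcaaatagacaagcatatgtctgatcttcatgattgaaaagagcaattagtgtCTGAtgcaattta
snR73: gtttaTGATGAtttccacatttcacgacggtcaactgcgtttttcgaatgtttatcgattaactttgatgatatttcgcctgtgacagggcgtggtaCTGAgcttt
snR72: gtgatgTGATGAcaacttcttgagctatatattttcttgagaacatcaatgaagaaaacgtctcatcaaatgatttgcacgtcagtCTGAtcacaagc

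Read in the sense strand, both sets of letters were found in 36 of the 47 box C/D RNAs and in 0 of the 29 H/ACA RNAs. An ACA within the last 10 bases was found in 18 of the 29 H/ACA RNAs and in 7 of the 47 box C/D RNAs. The box C/D RNAs were the shorter class, at 78 to 490 bases (median 98) against 161 to 1004 bases (median 204) for the H/ACA RNAs.

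In the controls the box C/D RNAs had the higher FPKM, with a median of 179.0 FPKM against 28.0 FPKM for the H/ACA RNAs, 36.3 FPKM for the snRNAs and 51.9 FPKM for all loci with a value above 0 (control values of the 4-ED table). Because the libraries were selected for mRNA, these values do not compare the amounts of the classes in the cell. The classes also differ in length, and the part of length in these FPKM values was not tested. The 5 highest levels were those of snR62 at 3283 FPKM, snR41 at 2631 FPKM, snR51 at 1901 FPKM, snR69 at 1668 FPKM and snR11 at 1650.3 FPKM. All but snR11, an H/ACA guide, are box C/D guides. These RNAs were nearly level between groups. With 4-ED, snR62 was at 3807 FPKM, snR41 at 2980 FPKM (log2 ratio 0.18) and snR69 at 1449 FPKM (log2 ratio -0.20). The 5 lowest levels above 0 were those of snR49 at 3.93 FPKM, snR191 at 4.93 FPKM, U6 at 5.67 FPKM, the U3 copy snR17b at 7.84 FPKM and snR81 at 8.60 FPKM. The control libraries were estimated afresh in each table, and after the scale of the tables was removed the control value of an snR locus differed between tables by a median of 0.0022 and by at most 0.012 on the log2 scale (79 loci, the widest snR38). This shows only that the estimate repeats when the libraries are the same.

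**Figure D1:**
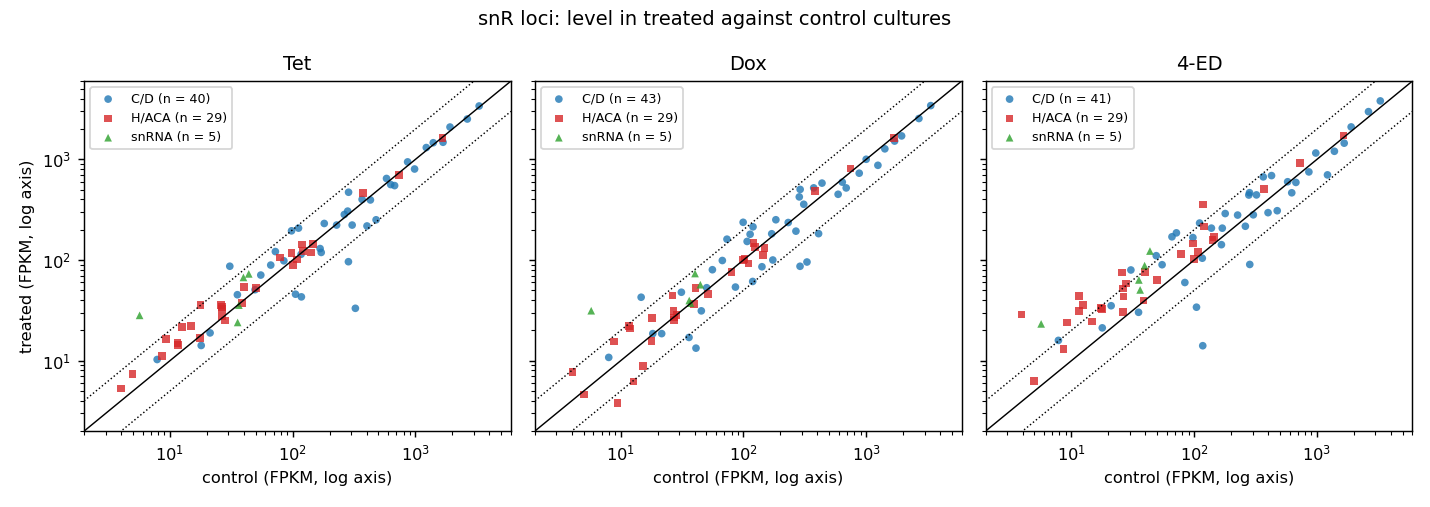
Pooled FPKM of each snR locus in treated cultures (vertical, log axis) against control cultures (horizontal, log axis) for Tet, Dox and 4-ED, with loci at 0 in either group left out. The solid line marks equal values and the dotted lines 2-fold differences. With 4-ED, 17 loci lie on or above the upper dotted line, against 3 with Tet and 4 with Dox.

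As a group, the snR loci stood higher with 4-ED. The median log2 ratio was 0.48 over the 75 snR loci with a value above 0 in both groups, against -0.01 over all 6668 such loci, and 58 of the 75 (77.3%) were above 0, where 47.8% of all loci were. At least 2-fold higher were 17 of 75, or 22.7%, where the background over all loci was 2.28%. At least 2-fold lower were 3 of 75, where the background was 0.765%. With Tet the median was 0.10 over 74 snR loci and 0.08 over all loci. With Tet, 3 of 74 were at least 2-fold higher (background 1.29%) and 4 at least 2-fold lower (background 0.78%). With Dox the median was 0.00 over 77 snR loci and -0.03 over all loci, 4 of 77 were at least 2-fold higher (background 0.93%) and 7 at least 2-fold lower (background 1.2%). The snR loci lay past 2-fold more often than the loci at large in both directions, as did other short loci. Of the non-snR loci under 100 bp, 34.8% were at least 2-fold higher and 8.70% at least 2-fold lower with 4-ED (23 loci). The shares were 16.7% and 20.8% with Tet (24 loci), and 18.2% and 9.09% with Dox (22 loci). At 100 to under 200 bp they were 9.73% and 3.54% with 4-ED (113 loci). They were 2.61% and 5.22% with Tet (115 loci) and 4.31% and 7.76% with Dox (116 loci). Whatever its sign, the log2 ratio had a median size of 0.31 (Tet), 0.40 (Dox) and 0.62 (4-ED) for the snR loci and of 0.16 for all loci under each treatment.

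The 3 comparisons share their controls, so their values are given side by side for each RNA and are not independent of each other.

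Both classes of guide RNA were compared by their median log2 ratio. With 4-ED the H/ACA RNAs had a median of 0.71 and all 29 were above 0, from 0.03 for snR44 and snR30 to 2.87 for snR49. The box C/D RNAs had a median of 0.21, with 24 of 41 above 0, from -3.06 for snR72 to 1.38 for snR128. The difference, H/ACA minus C/D, was 0.50. With Tet it was 0.26, from medians of 0.30 and 0.04, and with Dox it was -0.01.

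**Figure D2:**
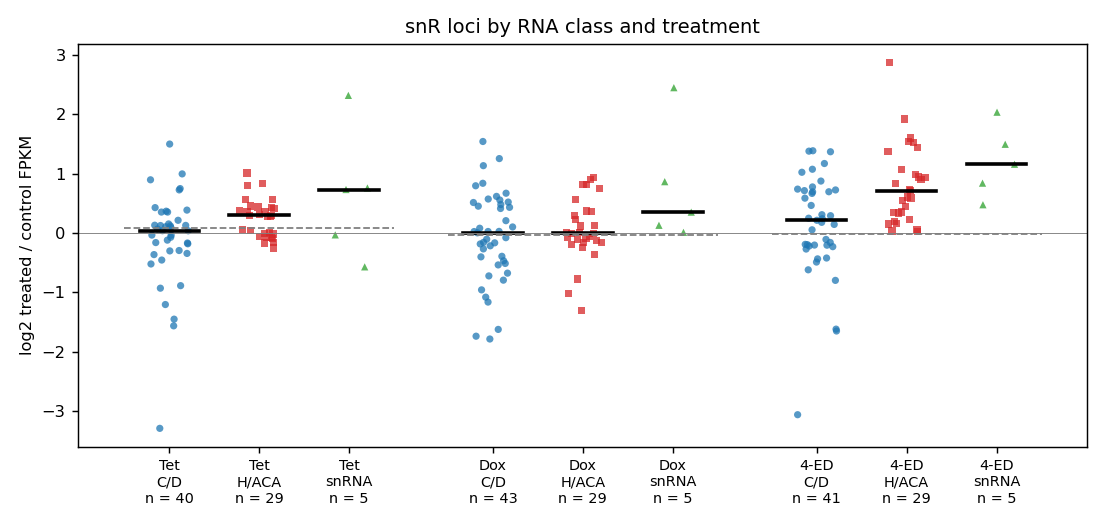
Log2 ratio of treated to control FPKM for each snR locus, by RNA class and treatment, with the number of loci under each column. Points are loci, black bars are class medians and dashed grey lines are the medians of all loci. The H/ACA points with 4-ED all lie above 0, around a median of 0.71.

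Among the H/ACA RNAs, 8 of 29 (27.6%) were at least 2-fold higher with 4-ED, where the background was 2.28%. At least 2-fold lower were 0 of 29 (background 0.765%). snR49, which guides pseudouridylation in both ribosomal subunits, was at 3.93 FPKM in the controls and 28.8 FPKM with 4-ED, against 5.29 FPKM with Tet and 7.74 FPKM with Dox. snR189, also a guide for both subunits, was at 11.6 FPKM in the controls and 43.7 FPKM with 4-ED, a log2 ratio of 1.92, against 0.30 with Tet and 0.82 with Dox. The values of these RNAs with 4-ED stood apart from those of the other treatments. snR35, a predicted guide for the small subunit, was at 118.0 FPKM in the controls and 358 FPKM with 4-ED, a log2 ratio of 1.60, with 143 FPKM under Tet and 148 FPKM under Dox. snR8, a guide for the large subunit, was at 25.9 FPKM in the controls and 75.2 FPKM with 4-ED (log2 ratio 1.54), against log2 ratios of 0.45 with Tet and 0.74 with Dox. snR80 was at 11.5 FPKM and 31.3 FPKM with 4-ED (log2 ratio 1.44). The RNAs snR85 and snR161 were higher with 4-ED and lower with Dox. For snR85, a predicted guide for the small subunit, the log2 ratio was 1.52 with 4-ED, 0.80 with Tet and -1.02 with Dox, at 12.7 FPKM in the controls and 6.24 FPKM under Dox. For snR161, which guides at the small subunit, it was 1.38 with 4-ED, 0.83 with Tet and -1.30 with Dox, at 9.42 FPKM in the controls and 3.81 FPKM under Dox. Both lay below a mean of 10 FPKM in the Dox table. With that floor, 5 in place of 7 snR loci were at least 2-fold lower with Dox. The last of the 8 was snR10, described with the processing RNAs below. snR36, a guide for the small subunit, was the only H/ACA RNA past 2-fold with Tet, at 17.8 FPKM in the controls and 35.8 FPKM with Tet (log2 ratio 1.01), with a log2 ratio of 0.90 under 4-ED.

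The box C/D guides past 2-fold pointed in both directions. With 4-ED, 6 of 41 box C/D RNAs (14.6%) were at least 2-fold higher and 3 (7.32%) at least 2-fold lower. The backgrounds were 2.28% and 0.765%. snR4 and snR45, which guide the acetylation of cytosines in the small-subunit rRNA, were higher with 4-ED. snR4 was at 110.8 FPKM in the controls and 233 FPKM with 4-ED, with log2 ratios of 0.90, 0.67 and 1.07 for Tet, Dox and 4-ED. snR45 was at 49.1 FPKM and 111 FPKM with 4-ED, a log2 ratio of 1.17, and stood at 0.04 with Tet and 0.08 with Dox. snR56, a methylation guide for the small subunit, was at 324 FPKM in the controls and 33.2 FPKM with Tet, a log2 ratio of -3.29, the lowest among the snR loci with both values above 0 in that table. With Dox it was at 95.6 FPKM (log2 ratio -1.78), and with 4-ED at 444 FPKM (log2 ratio 0.46). Lower with Dox were also snR47 (410 and 183 FPKM, log2 ratio -1.16), snR48 (36.0 and 17.0 FPKM, log2 ratio -1.08) and snR58 (41.1 and 13.3 FPKM, log2 ratio -1.62). Of these, snR47 was at log2 ratios of -0.89 with Tet and -0.44 with 4-ED, and snR48 at 0.35 and -0.22.

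The RNAs that serve in cleavage or assembly rather than in modification alone differed from each other. U14 (snR128), which is needed to release the precursor of the small-subunit rRNA, was at 30.5 FPKM in the controls and 79.7 FPKM with 4-ED, 86.8 FPKM with Tet and 47.9 FPKM with Dox, giving log2 ratios of 1.38, 1.50 and 0.62. U3 is encoded by snR17a and snR17b, and 345 bases of these genes align at 91.6% identity, so their reads can be shared between them. For snR17a the log2 ratios were 0.43 (Tet), 0.56 (Dox) and 1.37 (4-ED), and it stood at 66.0 FPKM in the controls and 170.2 FPKM with 4-ED. Its listed span is shared with the locus YOR235W. snR17b had log2 ratios of 0.39, 0.43 and 1.02 in the same order. In both the value with 4-ED was the highest. snR10, an H/ACA RNA that takes part in cleavage and is a guide as well, was at 28.0 FPKM in the controls and 58.6 FPKM with 4-ED (log2 ratio 1.06), and at log2 ratios of -0.17 with Tet and 0.00 with Dox. The listed span of snR10 is shared with the locus YGL088W. snR30, which is essential for the release of the small-subunit precursor, stayed level at 38.7 and 39.6 FPKM with 4-ED (log2 ratio 0.03), -0.06 with Tet and -0.11 with Dox. snR37, annotated with a structural role in early large-subunit assembly, had log2 ratios of 0.30, 0.22 and 0.99.

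Over the 5 snRNAs the median log2 ratio was 1.16 under 4-ED, beside 0.73 under Tet and 0.35 under Dox. U6 (snR6), which forms the catalytic core of the spliceosome and is made by RNA polymerase III, had 5.67 FPKM in the controls of the Tet table and 28.2 FPKM under Tet. It stood at 31.4 FPKM with Dox against 5.76 FPKM in the controls of that table, and at 23.2 FPKM with 4-ED. Its log2 ratios were 2.32, 2.45 and 2.03. U4 (snR14), which pairs with U6, was at 39.5 FPKM in the controls and 88.1 FPKM with 4-ED, with log2 ratios of 0.76, 0.86 and 1.16. U1 (snR19), which recognises the 5′ splice site, was nearly level with Tet (-0.03) and Dox (0.01) and had a log2 ratio of 0.48 with 4-ED. The long form of U5 (snR7-L) had log2 ratios of -0.57, 0.13 and 0.84, and the short form (snR7-S) 0.73, 0.35 and 1.49. The short form lies within the long one, so the division of reads between them is uncertain. The medians of the 5 snRNAs under Tet and Dox are the values of this short form.

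Length separated the RNAs as well. By annotated RNA length, the median log2 ratio with 4-ED was -0.16 for RNAs under 100 bases (21 with a ratio), 0.69 for 100 to under 200 bases (32) and 0.66 for 200 bases or more (22). All 22 of the longest RNAs were above 0. With Tet the medians were -0.05, 0.33 and 0.03 in the same order, and with Dox -0.12, 0.08 and 0.00. Across snR loci, the ratio with 4-ED and the annotated length had a Spearman rho of 0.39 and a Pearson r of 0.15 (75 loci). The rho was 0.21 with Tet (74 loci) and 0.10 with Dox (77 loci). Within the H/ACA class the sign was opposite, with a rho of -0.55 under 4-ED, -0.51 under Tet and -0.21 under Dox (29 RNAs). The 6 H/ACA RNAs of 300 bases or more ran from 0.03 for snR30 to 0.99 for snR37 with 4-ED. These correlations are across genes of the same libraries and are a description. With the span printed in the tables in place of the RNA length, rho over all snR loci was 0.23 (4-ED), 0.15 (Tet) and 0.24 (Dox). For 12 of the 81 loci that span is longer than the annotated RNA, because it covers an overlapping gene, and it gives intron-hosted RNAs the length of their host.

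**Figure D3:**
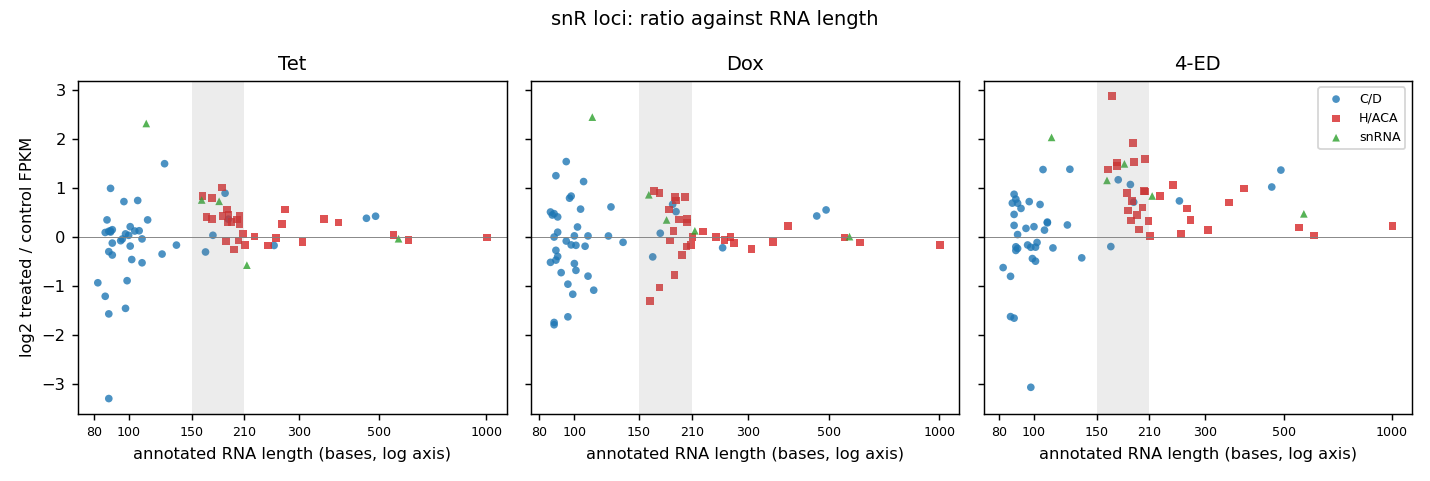
Log2 ratio of treated to control FPKM against annotated RNA length (log axis) for each snR locus, by class, with RNAs of 150 to 210 bases shaded. In the shaded range the medians with 4-ED are 0.93 for the H/ACA RNAs and 0.89 for the box C/D RNAs.

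Class and length overlap in part, as 0 H/ACA RNAs and 37 box C/D RNAs are under 120 bases. At 150 to 210 bases, where the classes share the most RNAs, the median with 4-ED was 0.93 for 17 H/ACA RNAs and 0.89 for 4 box C/D RNAs, a difference of 0.04. The 4 are snR4, snR45, snR70 (log2 ratio -0.19) and snR190 (0.71). Above 210 and under 300 bases the only box C/D RNA, snR63, had a log2 ratio of 0.74 and 6 H/ACA RNAs a median of 0.47. At 300 bases or more the 2 U3 RNAs had a median of 1.20 and 6 H/ACA RNAs 0.22, so in both longer ranges the box C/D value was the higher. Box C/D RNAs under 120 bases had a median of 0.05 (31 with a ratio). With Tet the difference at 150 to 210 bases was between medians of 0.37 and 0.20, and with Dox 0.30 and 0.30. Other short loci stood higher with 4-ED too. Loci that are not snR loci had a median of 0.24 at a listed span of 100 to under 200 bp (113 loci, 11 of them at least 2-fold higher) and of 0.69 under 100 bp (23 loci, 8 at least 2-fold higher), against -0.02 at 200 bp or longer. The control level moved with the ratio as well. With 4-ED, rho between the ratio and the control FPKM was -0.62 over the 75 snR loci (Pearson r -0.52 on the log2 scale) and -0.57 within the H/ACA class, with the control value entering both measures. Under Tet and Dox rho was -0.48 and -0.26. The parts of length and of control level in the class difference were not tested.

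Box C/D RNAs under about 100 bases also held every snR locus listed at 0. In 8 members, all box C/D and 78 to 100 bases long, at least 1 group was at 0 while, in each, another group was not. A value of 0 can be a failed estimate in such short RNAs, and no fold is given. With Tet, Dox and 4-ED, 5, 2 and 4 of 81 members were at 0 in the treated group only. Of all 7080 loci, 23, 25 and 25 were. In the controls only, 2, 0 and 1 members were at 0, and 29, 26 and 41 of all loci. In both groups, 0, 2 and 1 members were at 0, and 358, 361 and 346 of all loci. snR67 was at 478 FPKM in the controls and 251 FPKM with Tet, at 475 and 309 FPKM with 4-ED, and at 486 and 0 FPKM with Dox. snR53, which follows snR67 on the same strand, was listed at 0 in the controls and with Dox, at 26.6 FPKM with Tet and at 45.3 FPKM with 4-ED. The sequences of this pair are
snR67: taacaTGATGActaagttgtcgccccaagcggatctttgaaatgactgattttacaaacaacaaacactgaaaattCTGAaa
snR53: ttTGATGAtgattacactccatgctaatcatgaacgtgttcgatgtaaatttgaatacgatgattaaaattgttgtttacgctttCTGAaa

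They lie at chrV:61352-61433 and chrV:61699-61789 on the plus strand. snR52 was at 139 FPKM in the controls and 0 with Tet, at 85.8 FPKM with Dox and at 208 FPKM with 4-ED. snR58 and snR65, at 40.1 and 44.3 FPKM in the controls, were listed at 0 with Tet and 4-ED and at 13.3 and 31.3 FPKM with Dox. snR79 was above 0 only in the controls, at 28.4 FPKM. snR59, released from an intron of *RPL7B*, was above 0 only with Tet, at 229 FPKM.

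Among the RNAs cut from shared transcripts, neighbours often differed. The largest cluster runs snR78, snR77, snR76, snR75, snR74, snR73 and snR72, all methylation guides. snR78 and snR77 were above the controls with every treatment, with log2 ratios of 0.35 and 0.12 under Tet, 0.45 and 0.48 under Dox, and 0.69 and 0.87 under 4-ED. snR74 was lower throughout, at 284 FPKM in the controls of the 4-ED table and 90.4 FPKM with 4-ED, 86.7 FPKM with Dox and 96.3 FPKM with Tet, giving log2 ratios of -1.65, -1.74 and -1.56. Its neighbour snR73 was higher throughout, with log2 ratios of 0.75, 1.13 and 1.38 for Tet, Dox and 4-ED, although its position is shared with the listed locus YMR013W-A. snR72, the last in the cluster, was at 117 FPKM in the controls and 14.1 FPKM with 4-ED (log2 ratio -3.06), 43.1 FPKM with Tet (-1.45) and 214 FPKM with Dox (0.84). snR76 had log2 ratios of -0.52, -0.79 and 0.29, and snR75, with the highest control value of the cluster at 860.1 FPKM, 0.13, -0.27 and -0.20. In snR41, snR70 and snR51 the log2 ratios lay between -0.40 and 0.18, and in snR57, snR55 and snR61 between -0.39 and 0.24, over all treatments. In the pair of snR190 and U14, snR190 had log2 ratios of 0.37, 0.52 and 0.71, beside 1.50, 0.62 and 1.38 for U14. The 17 RNAs in clusters had a median of 0.16 with 4-ED (16 with a ratio), and the 24 box C/D RNAs with a locus of their own 0.31 (21 with a ratio).

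**Figure D4:**
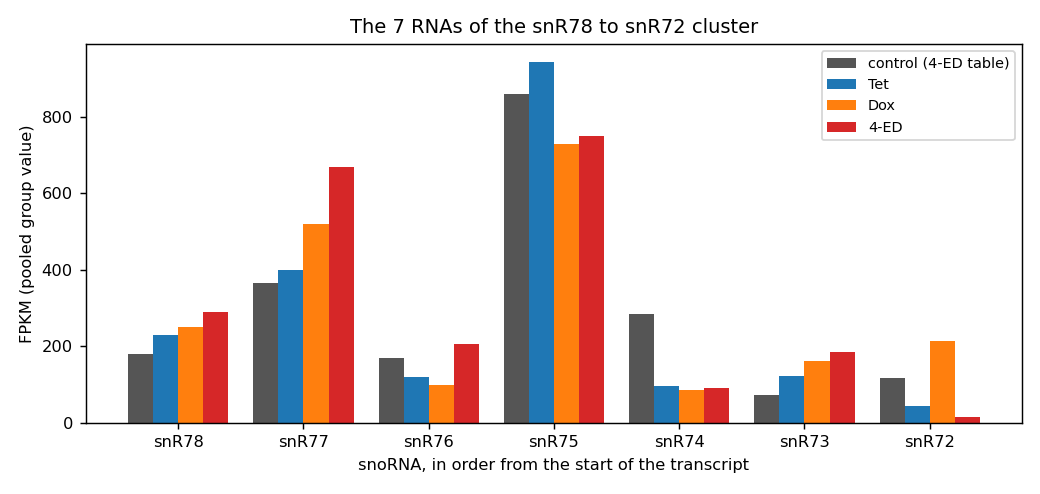
Pooled FPKM of the 7 snoRNAs of the snR78 to snR72 cluster, in transcript order, for the controls (as scaled in the 4-ED table) and each treatment; bars are single group values without error. snR74 is lower with every treatment, snR73 higher with every treatment, and snR72 lower with Tet and 4-ED and higher with Dox.

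Among the snR loci, 8 lie within an annotated intron of a protein-coding gene on the same strand. With 4-ED their median was -0.04 (6 with a ratio), against 0.59 for the 69 free loci with a ratio, a difference of -0.63. With Tet the difference was -0.14 and with Dox 0.20. Restricted to box C/D RNAs, the medians with 4-ED were -0.19 for 4 hosted RNAs and 0.24 for 37 free ones. With Dox the order was opposite, at 0.51 for 5 hosted and -0.09 for 38 free box C/D RNAs, and with Tet the medians were -0.18 (4) and 0.04 (36). The 6 hosted box C/D RNAs are short, at 78 to 102 bases. All box C/D RNAs under 120 bases, hosted ones included, had medians of 0.05 with 4-ED, -0.16 with Dox and 0.00 with Tet. The part of length in the difference between hosted and free RNAs was not tested. Each hosted RNA is given beside its host. snR24, from the intron of *ASC1*, a ribosome-bound protein, had log2 ratios of 0.99, 1.25 and 0.78 for Tet, Dox and 4-ED, beside 0.41, 0.13 and -0.04 for *ASC1*. snR54, from *IMD4*, an enzyme of guanine nucleotide synthesis, had -1.20, 0.51 and -1.62, beside -0.20, -0.01 and -0.66 for *IMD4*. snR18, from *EFB1*, a translation elongation factor, had -0.46, 0.21 and -0.11, beside 0.31, 0.33 and -0.06 for the host. For snR39, from *RPL7A*, a ribosomal protein gene, the ratios were 0.10, -0.47 and -0.27, beside 0.50, 0.30 and -0.07. snR44, from *RPS22B*, had -0.16, 0.00 and 0.03, beside 0.23, 0.26 and 0.31 for the host. snR191, from *NOG2*, had 0.57, -0.12 and 0.35, beside -0.16, -0.06 and -0.44. snR38, from *TEF4*, was at 14.7 FPKM in the controls and 42.7 FPKM with Dox and at 0 with Tet and 4-ED, while *TEF4* had log2 ratios of 0.10, -0.15 and -0.29. Whether reads of unspliced host transcripts enter these values was not tested.

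The compounds were given at the same dose, so they can be set against each other directly, as the difference of their log2 ratios to the controls. 4-ED is the epimer of Dox, and Tet differs from Dox in the place of a hydroxyl group. Without values per culture no interval and no test of these 3 differences can be given. Between the epimers the snR loci stood higher with 4-ED than with Dox, by a median of 0.40 over 74 loci, against 0.03 over all loci, and 62 of the 74 (83.8%) were higher, where 56.0% of all loci were. At least 2-fold higher were 13 of 74 (background 2.28%) and 2 were at least 2-fold lower (background 0.526%). The H/ACA RNAs differed by a median of 0.56, higher with 4-ED in 28 of 29. The largest differences were 2.68 for snR161, 2.55 for snR85, 2.25 for snR56 and 1.94 for snR49, and the lowest were -3.90 for snR72 and -2.13 for snR54. The Dox values of snR161, snR85 and snR49 were low, at 3.81, 6.24 and 7.74 FPKM. Between 4-ED and Tet the median was 0.31 over 74 loci against -0.08 over all loci, with 10 at least 2-fold higher with 4-ED (background 1.29%) and 1, snR72, at least 2-fold lower (background 0.661%). Between Tet and Dox the median was 0.01 over 73 loci against 0.11 over all loci, with 4 at least 2-fold higher with Tet (background 1.31%) and 3 at least 2-fold lower (background 0.526%).

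The protein genes that make, bind and process these RNAs were read in the same tables. Of 72 such genes, host genes included, 71 were matched by name and found in the tables. The name *REX1* was not found in the annotation used, so that gene was not looked up. Of the 71, 0 were 2-fold higher or lower with any treatment, where the background lay between 0.765% and 2.28%. With 4-ED, 2 were at least 1.5-fold higher (background 5.97%) and 6 at least 1.5-fold lower (background 2.67%). The box C/D core had a median of -0.54 with 4-ED. Its methyltransferase *NOP1* was at 68.1 FPKM in the controls and 46.9 FPKM with 4-ED (log2 ratio -0.54), *NOP58* at a log2 ratio of -0.54, *SNU13*, which also binds U4, at -0.68, and *NOP56* at -0.02. The H/ACA core had a median of 0.16, with the pseudouridine synthase *CBF5* at 0.17, *GAR1* at -0.19, *NHP2* at 0.14 and *NOP10* at 0.56. Also at least 1.5-fold lower with 4-ED were the U3 protein *RRP9* at -0.59, the assembly factor *HIT1* at -0.64, the poly(A) polymerase *TRF5* at -0.61, its RNA-binding partner *AIR1* at -0.62 and the host *IMD4*. At least 1.5-fold higher were the assembly cofactor *TAH1* at 0.60 and *SMX2* of the Sm ring at 0.64. *SMX2* was the only one of the 71 at least 1.5-fold higher with Tet, at 0.61 (background 4.44%), and 0 were at least 1.5-fold lower (background 1.93%). With Dox, 0 were at least 1.5-fold higher (background 2.44%) and *NRD1*, which ends snoRNA transcripts, was the only one at least 1.5-fold lower, at -0.64 (background 3.67%).

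The RNAs were also divided by sequence upstream and by rRNA target. The letters ACCCTAA, the core of the site bound by the factor Tbf1 at snoRNA promoters, were searched on both strands in the 300 bases before each free RNA or before the first RNA of a cluster. They were found in 6 of 60 such windows and in 142 of 5940, or 2.39%, of the windows of the same length before protein-coding genes. The long and short forms of U5 share a window with the letters but enter the medians separately, as do the RNAs of a cluster. snR65 has the letters but no ratio with Tet and 4-ED, where it was at 0. With 4-ED the median log2 ratio was 0.54 for the 6 RNAs with the letters and a ratio and 0.59 for the 63 without. With Tet it was -0.16 (6) against 0.12 (62), and with Dox 0.02 (7) against 0.00 (63). Guides for the large subunit alone had a median of 0.34 with 4-ED (41 RNAs), guides for the small subunit alone 0.39 (16), and guides for both 0.66 (8). In the same order the medians were 0.10 (41), -0.01 (16) and 0.30 (7) with Tet, and -0.06 (43), -0.04 (16) and 0.40 (8) with Dox. The acetylation guides snR4 and snR45 act on the small-subunit rRNA but were counted in none of these sets. With 4-ED their log2 ratios were 1.07 and 1.17, so the small-subunit median of 0.39 leaves out 2 values above it.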

How the data were processed

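RNA-seq libraries selected for mRNA were made from 12 cultures. Bowtie2 was used by the authors for alignment to R64, and Cuffdiff, run on Ensembl gene models, for quantification. Tool versions are not given in the sources used here. The authors deposited 1 table per treatment, with 1 pooled FPKM value per group, scaled within the table. The tables also hold the authors' fold changes, test statistics, p-values and q-values, which were not used. Samples were grouped by title.

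Here the log2 ratio of treated to control FPKM was computed where both values were above 0, without a pseudocount. Loci were counted past 2-fold, and no test was made. Class, introns and sequences came from RefSeq R64, in which 69 of the 81 members had the span of the tables. RNAs up to 300 bases apart on a strand formed a cluster. Near-identical copies were sought with blastn.

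Named members are those past 2-fold at a mean of at least 10 FPKM, those at 0 in some group, the 5 highest and 5 lowest control levels, snRNAs, processing RNAs, hosted RNAs and their cluster neighbours. The cluster of snR57, snR55 and snR61 falls outside that rule and was named after its values were seen. The members and gene lists were chosen with earlier results of these data known. The ratio and count steps were tested on simulated data. Python 3.11.15, numpy 2.4.6, pandas 2.3.3 and scipy 1.17.1 were used.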

Additional observations from a re-analysis of the deposited data

How the results depend on the processing

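No paired analysis was possible because the tables hold 1 pooled value per group and no value per culture, and for the same reason no culture could be left out. Of 99 alternative values, 85 lay within 0.1 of the value reported (log2 scale or rho) or within 1.5 times a count, and 14 moved further. Some of the 85 could not move. Centring on the median of all loci leaves a difference between sets and rho unchanged. Keeping only loci with the Cuffdiff status OK changed no value, as every member with a ratio had that status. With 1 FPKM added to both values, which lets loci at 0 in a group enter, the members at least 2-fold lower numbered 9 with Tet and 7 with 4-ED. Listed at 0 in the treated group alone were 5 of 81 members with Tet and 4 with 4-ED, where 23 and 25 of all 7080 loci were. The share of all loci at least 2-fold lower was not computed with 1 FPKM added. The counts of 9 and 7 are therefore not set against the loci at large, and no result about the members is drawn from them. At 1.5-fold in place of 2-fold, 11 were higher with Tet (4.44% of all loci), 14 higher and 12 lower with Dox (2.44% and 3.67%), and 36 higher and 5 lower with 4-ED (5.97% and 2.67%). At a mean of at least 10 FPKM, intron-hosted minus free RNAs was 0.36 with Dox. The other alternatives that moved a value were chosen after seeing the data. Without RNAs under 120 bases, the median was 0.30 with Tet and 0.74 with 4-ED. With the annotated length, rho was 0.10 with Dox and 0.39 with 4-ED. H/ACA minus C/D with Dox, reported as -0.01, was 0.16 without loci that share their span with another gene, and with 4-ED it was 0.036 among RNAs of 150 to 210 bases. The cause of these shifts was not tested beyond what each setting removes.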

Other observations

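A few other non-coding RNAs, which carry no snR name, also had ratios above 0 with 4-ED. U2 (*LSR1*), the remaining spliceosomal RNA, was at 28.0 FPKM in the controls and 54.9 FPKM with 4-ED, with log2 ratios of 0.55 for Tet, 0.19 for Dox and 0.97 for 4-ED. *SCR1*, the RNA of the signal recognition particle, was at 158.7 and 379 FPKM with 4-ED, at log2 ratios of 0.50, 0.60 and 1.25. *RPR1*, the RNA of RNase P, was at 128.6 and 270.4 FPKM with 4-ED, at log2 ratios of 0.15, 0.09 and 1.07. *NME1*, the RNA of RNase MRP, had log2 ratios of 0.07, -0.12 and 0.56. Of 297 listed tRNA loci, 8 had a value above 0 in both groups of the 4-ED table. Their median log2 ratio was 0.96, and 4 were at least 2-fold higher (background 2.28%). With Tet the median was 0.54 over 7 loci, with 1 at least 2-fold higher and 1 at least 2-fold lower (backgrounds 1.29% and 0.78%). With Dox it was 0.21 over 6 loci, with 0 past 2-fold (backgrounds 0.93% and 1.2%).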
